A study of Sus scrofa with 23 samples.

Results

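The epithelial sodium channel (ENaC) and the corticosteroid genes that control it were described here as a set of 10 genes in the kidney cortex of newborn pigs: the channel subunits SCNN1A, SCNN1B and SCNN1G, the receptors NR3C2 and NR3C1, the enzyme HSD11B2, the kinase SGK1, the ligase NEDD4L, and the hormone-induced genes TSC22D3 and FKBP5. They were chosen by symbol and are 10 of the 26687 genes in the deposited gene table. All 10 were found, each under a single gene identifier, and all 10 passed the filter on low counts. RNA was sequenced from 23 libraries of kidney cortex, 11 labelled CF (CFTR-/-), 6 labelled HET (CFTR+/-) and 6 labelled WT (CFTR+/+, wild type). CFTR is the anion channel lost in cystic fibrosis. The piglets came from matings of CFTR+/- pigs and were studied within 12 hours of birth. All groups were thus newborns, with no treatment labelled, that differed in the number of disrupted CFTR alleles. The labels gave no sex or litter and did not say outright that each number was a separate pig, so the p-values measure the spread between these libraries. HET and WT together formed the non-CF group (n = 12), and the main comparison asked which kidney genes differed between CF and non-CF.

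As background, ENaC is the amiloride-sensitive channel of the apical membrane of principal cells and of the late distal nephron, where it carries the final, hormone-controlled step of sodium reabsorption. Aldosterone binds the mineralocorticoid receptor NR3C2, which induces SGK1, and SGK1 phosphorylates the ubiquitin ligase NEDD4L so that less ENaC is removed from the membrane. Cortisol binds the same receptor as well as the glucocorticoid receptor NR3C1, and HSD11B2 protects NR3C2 by converting cortisol to inactive cortisone, while TSC22D3 (GILZ) and FKBP5 are induced by either receptor and are widely used as readouts of corticosteroid action.

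Depth and the state of the libraries were examined first. The libraries held 32901281 to 52952273 estimated counts each, and 3 counts, taken as the smallest number distinguishable from 0, corresponded to 0.0567 to 0.0912 counts per 1000000 (CPM), far below every member's level. CFTR itself was counted at 1.27 to 3.67 CPM in WT, 9.41 to 17.5 CPM in HET and 12.5 to 23.5 CPM in CF. The WT libraries lay below all others while CF and HET overlapped, so CFTR RNA was higher, not lower, in the libraries labelled with disrupted alleles, and group names below mean the libraries so labelled. The pigs numbered CF1 to CF6, WT12, HET13 to HET15 and WT16 to WT18 (earlier-numbered, n = 13) and the other 10 (later-numbered) lay apart on axis 2 of a multidimensional scaling plot of log2 CPM, at most 0.012 against at least 0.333. No label named a batch, and the split was known from earlier results of these data. The summed level of 7 immediate early genes (FOS, EGR1 and others that respond within minutes to handling of tissue) was 1539 CPM in CF1, 575 CPM in WT12 and 216 CPM in HET20, against 61.2 to 139 CPM in the other 20 libraries. The part of either difference in the results below was not tested, and several results are also given without these libraries or within the number sets.

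Across all genes, edgeR called 73 of 20921 when CF was set against non-CF (0.349%, at a Benjamini-Hochberg adjusted p under 0.05), 51 higher and 22 lower in CF. With upper-quartile scaling 101 were called, 48 of them higher. For CF against WT the count was again 73 (0.349%), 32 higher and 41 lower, while 36 of 139 were higher with upper-quartile scaling and 353 of 576 with DESeq2. For CF against HET it was 0 (0%), with 2069 genes at an unadjusted p under 0.05 and 65 called by DESeq2, and for HET against WT it was 1 gene (0.00478%), CFTR. None of the 10 members was called in any of these 4 comparisons by edgeR or by DESeq2. At an unadjusted p under 0.05, edgeR found 3 members for CF against non-CF (HSD11B2 and FKBP5 higher, NR3C2 lower in CF), the same 3 for CF against WT, and none for CF against HET or HET against WT. Over all genes 13.7% passed that mark for CF against non-CF. For the 10 members the log2 fold changes of CF against non-CF ran from -0.14 to 0.30 with a median of 0.10, 7 above and 3 below 0, and 49.8% of all genes lay above 0. In tissue of this kind, fewer cells of a type and less RNA per cell cannot be told apart.

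**Figure D1:**
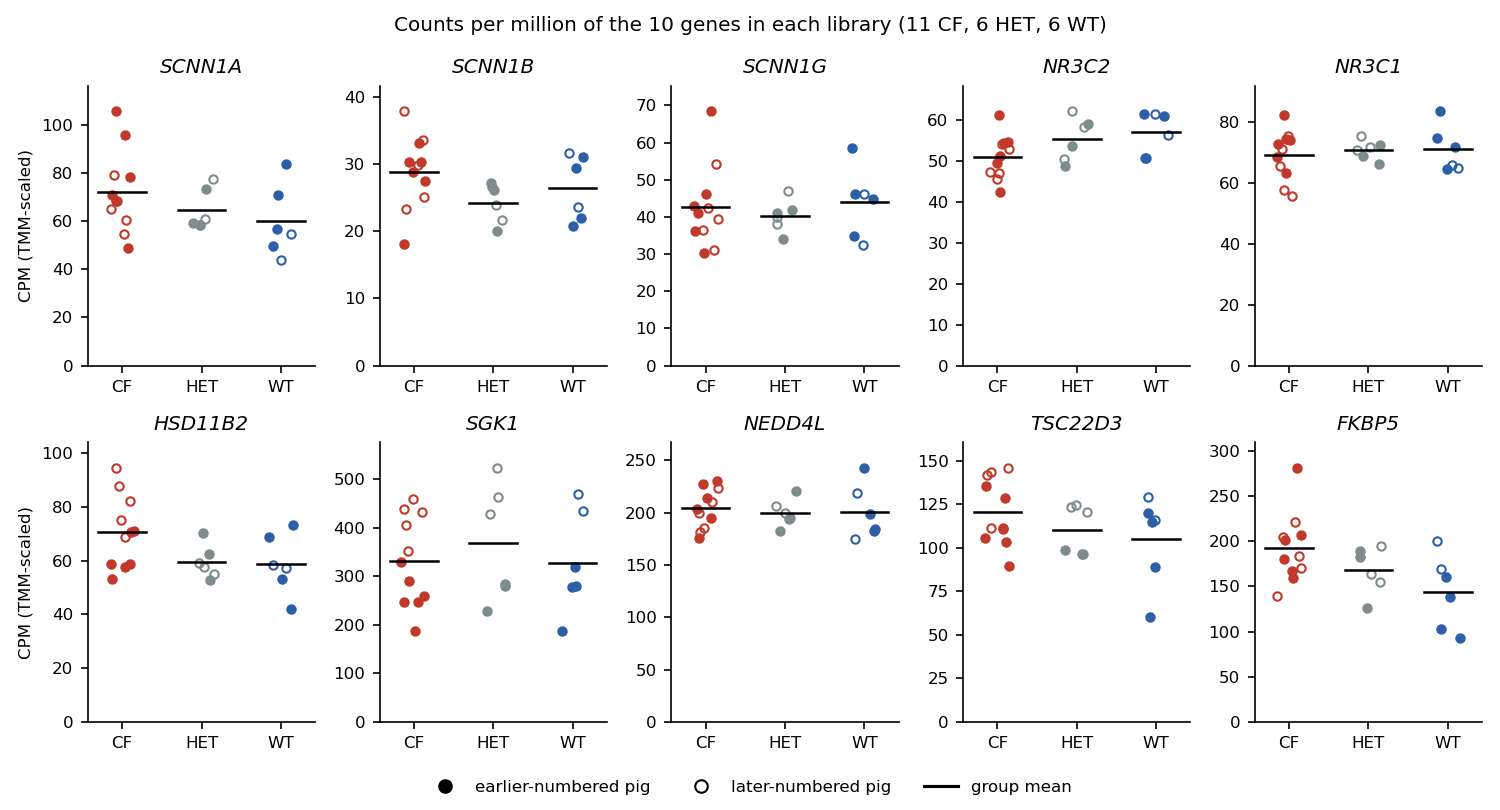
TMM-scaled CPM (vertical axes from 0) of the 10 genes in each of 23 libraries, by label, with filled points for earlier-numbered and open points for later-numbered pigs and a line at each group mean. The labels overlap for every gene, and for SGK1 the open points lie above the filled points in every label.

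Levels of different genes were compared per transcript length, in transcripts per 1000000 (TPM) summed per gene. SGK1 was the most abundant member at 158 ± 50.9 TPM (SD, n = 23), and it was above HSD11B2 in 23 of 23 libraries. HSD11B2 followed at 54.5 ± 9.84 TPM, TSC22D3 at 53.4 ± 11.4 TPM and FKBP5 at 52.2 ± 11.5 TPM. These 3 could not be ordered: HSD11B2 exceeded TSC22D3 in 11 of 23 libraries, and TSC22D3 exceeded FKBP5 in 13. Next came the channel's alpha subunit SCNN1A at 31.8 ± 5.56 TPM and NEDD4L at 23.7 ± 3.23 TPM, the former being higher in 22 of 23 libraries. The glucocorticoid receptor NR3C1 (14.8 ± 1.76 TPM), SCNN1G (14.05 ± 2.66 TPM), the mineralocorticoid receptor NR3C2 (12.3 ± 1.96 TPM) and SCNN1B (11.99 ± 2.11 TPM) stood lowest. Neighbours among those 4 were ordered the same way in 15 or 16 of 23 libraries, and the ranges of every pair of neighbours in the whole order overlapped. On counts per kilobase of mean effective length, 6 of the 10 genes kept their place, NR3C1 changed places with SCNN1G, and NR3C2 changed places with SCNN1B.

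**Figure D2:**
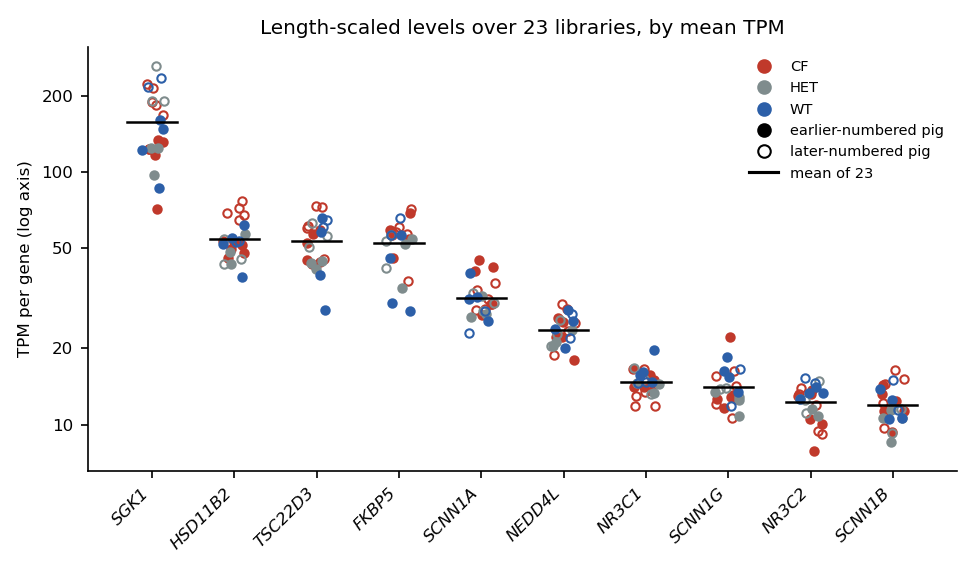
Level of each gene in TPM (log axis) in 23 libraries, ordered by the mean (line), coloured by label and filled for earlier-numbered pigs. SGK1 had the highest mean, 158 TPM, and SCNN1B the lowest, 11.99 TPM.

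The 3 subunits assemble into the channel pore. SCNN1A (alpha subunit, Sscrofa11.1 chr5:64287529-64312917, forward strand) ranged from 49.0 to 105.5 CPM in CF with a median of 68.2, from 58.4 to 77.5 CPM in HET with a median of 60.1, and from 44.0 to 83.5 CPM in WT with a median of 55.9. The CF group held both the highest values (105.5 CPM in CF1 and 95.9 CPM in CF5) and values inside the WT range, so the groups overlapped, with 20 of 23 libraries inside the range shared by CF and non-CF. The log2 fold change was 0.21 (SE 0.117, 95% interval -0.03 to 0.45, edgeR adjusted p = 0.432) in CF relative to non-CF, 0.27 (SE 0.145, adjusted p = 0.414) for CF against WT and 0.16 (SE 0.144, adjusted p = 0.744) for CF against HET. SCNN1B (beta subunit, chr3:22832259-22902592, reverse strand) ranged from 18.2 to 37.8 CPM in CF with a median of 29.8, from 20.05 to 27.1 CPM in HET with a median of 25.04, and from 20.8 to 31.6 CPM in WT with a median of 26.4. In CF, 8 of 11 libraries were above every HET library and 1 was below all of them, while 3 of 11 were above every WT library and 1 was below all of those. On the log2 scale the difference was 0.19 (SE 0.101, interval -0.02 to 0.40, edgeR adjusted p = 0.418) in CF relative to non-CF. It was 0.25 (SE 0.124, interval -0.00 to 0.51, edgeR adjusted p = 0.513) for CF against HET and 0.13 (SE 0.124, interval -0.13 to 0.38, adjusted p = 0.691) for CF against WT. SCNN1G (gamma subunit) lies near SCNN1B on the same strand, at chr3:22977940-23013384. Its medians were 41.1 CPM in CF (30.2 to 68.4), 40.5 CPM in HET (34.0 to 47.0) and 45.6 CPM in WT (32.5 to 58.6), with a log2 fold change of 0.02 (SE 0.116, interval -0.22 to 0.26, edgeR adjusted p = 0.974) for CF against non-CF. Its sign depended on the scaling, at -0.00 with upper-quartile factors and -0.03 on log2(TPM + 0.5). The interval holds differences in either direction, so a p above the threshold does not show equal levels.

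The annotation holds 1 transcript of SCNN1G, 2 of SCNN1A and 4 of SCNN1B. The SCNN1B transcripts each have 13 exons and the same last exon, and differ in where transcription starts. A transcript of 2450 bases took 59.9% ± 13.99 (SD, n = 11) of the gene's TPM in CF and 46.8% ± 12.8 (n = 12) in non-CF, and a transcript of 2519 bases took 22.9% ± 13.1 and 32.9% ± 9.48. Their annotated starts are chr3:22902454 and chr3:22902592, with first exons of 23 and 92 bases. The ranges overlapped, and the exact Mann-Whitney U test gave p = 0.0317 (adjusted p = 0.507 over 21500 transcripts) and p = 0.00698 (adjusted p = 0.383). Such short first exons tell these transcripts apart, so the shares are estimates.

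The mineralocorticoid receptor NR3C2 (chr8:80303172-80669050, forward strand) had the most negative fold change of the 10 members in CF against non-CF. It ranged from 42.4 to 61.2 CPM in CF with a median of 51.2, from 48.7 to 62.0 CPM in HET with a median of 56.0, and from 50.8 to 61.5 CPM in WT with a median of 58.6. In CF, 10 of 11 libraries lay below the non-CF median and 4 lay below every non-CF library. edgeR put the log2 fold change at -0.14 (SE 0.0608, interval -0.27 to -0.02) for CF against non-CF, with an unadjusted p of 0.0282 and an edgeR adjusted p of 0.293, and -0.16 (SE 0.0746, adjusted p = 0.320) for CF against WT. A permutation test of mean log2 CPM with 100000 resamples, two-sided, gave p = 0.0239 for CF against non-CF. Without CF1, WT12 and HET20 the fold change was -0.12 with an unadjusted p of 0.0628. It was -0.07 (edgeR unadjusted p = 0.468) in earlier-numbered and -0.22 (unadjusted p = 0.0160) in later-numbered pigs, a difference with an interaction adjusted p of 0.714.

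Of NR3C2's 4 annotated transcripts, 2 carried most of its TPM. The 3850-base transcript, which starts at chr8:80303172 and ends in a last exon of 623 bases, took 46.8% ± 4.41 (SD, n = 11) in CF and 53.6% ± 3.96 (n = 12) in non-CF. The 5611-base transcript, which starts downstream at chr8:80306291 and ends in a last exon of 2445 bases, took 47.3% ± 4.67 and 40.8% ± 4.19. For the shorter form only 1 of 11 CF libraries exceeded the non-CF median, and for the longer form 9 of 11 did. The exact Mann-Whitney U test gave p = 0.000737 for the shorter form, the smallest p among the members' transcripts, which adjusted over all transcripts was 0.331, and p = 0.00562 for the longer (adjusted p = 0.371). In all, 64 member transcripts were listed, 25 were common enough to test, 0 were called by the Mann-Whitney test and 7 had an unadjusted p under 0.05, while 2 of 21500 transcripts were called across all genes (0.0093%) and 8.03% had an unadjusted p under 0.05. An annotated gene on the opposite strand shares 110 exonic bases with NR3C2 and another shares 52 with FKBP5, and whether strand was used in the quantification is not given in the sources used here.

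NR3C1, the glucocorticoid receptor (chr2:144822937-144956451, reverse strand), had similar medians under the 3 labels. They were 71.1 CPM in CF (55.7 to 82.1), 71.3 CPM in HET (66.2 to 75.5) and 68.9 CPM in WT (64.6 to 83.4), and 19 of 23 libraries lay in the range shared by CF and non-CF. The log2 fold change of CF against non-CF was -0.04 (SE 0.0609, interval -0.16 to 0.09, edgeR adjusted p = 0.857), and with 1 library left out it lay between -0.06 (without CF1) and -0.01 (without CF11).

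HSD11B2 (11-beta-hydroxysteroid dehydrogenase type 2, chr6:28084087-28089256, forward strand) had the smallest p of the 10 genes for CF against non-CF. It is a compact gene of 5 exons with 1 annotated transcript of 1386 bases, and SCNN1G is the only other member with 1 annotated transcript, so for these genes all counts belong to a single annotated start. The sequence from 250 bases before to 50 bases after each start, read from the RefSeq genome (Sscrofa11.1, 5′ to 3′ on the gene's strand), is shown because corticosteroid receptors bind DNA near the 6-base motif TGTTCT and its complement AGAACA, and capitals mark each match. The windows are chr6:28083837-28084136 for HSD11B2 and chr3:23013335-23013634 for SCNN1G.
HSD11B2: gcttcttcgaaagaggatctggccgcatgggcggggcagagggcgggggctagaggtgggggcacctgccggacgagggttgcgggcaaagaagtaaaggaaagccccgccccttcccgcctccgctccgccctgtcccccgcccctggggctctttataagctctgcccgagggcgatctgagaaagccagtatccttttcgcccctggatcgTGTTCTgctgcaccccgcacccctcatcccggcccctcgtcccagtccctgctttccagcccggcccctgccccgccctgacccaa
SCNN1G: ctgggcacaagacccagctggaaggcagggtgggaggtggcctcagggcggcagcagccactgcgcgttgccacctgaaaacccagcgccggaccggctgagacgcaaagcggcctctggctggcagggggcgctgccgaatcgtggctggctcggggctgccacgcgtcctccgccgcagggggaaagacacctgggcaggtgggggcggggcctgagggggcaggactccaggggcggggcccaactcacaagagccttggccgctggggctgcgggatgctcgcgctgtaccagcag
HSD11B2 held 1 match, whose first base lies 36 bases before the start, and it was the only one of the 10 members with a match in the window at its most abundant transcript. Over 20483 windows of the same 300 bases, searched on both strands at the most abundant transcript of each gene tested, 11.3% held a match, and 1 (0.00488%) held the full inverted pair with a gap of 3 bases. A match is a run of letters only.

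The HSD11B2 level ranged from 53.0 to 94.6 CPM in CF with a median of 70.6, from 52.9 to 70.4 CPM in HET with a median of 58.3, and from 41.8 to 73.3 CPM in WT with a median of 57.8. In CF, 9 of 11 libraries lay above the non-CF median and 4 lay above every non-CF library. Its log2 fold change was 0.26 (SE 0.0966, interval 0.06 to 0.46) for CF against non-CF, with an unadjusted p of 0.0131 and an edgeR adjusted p of 0.216, and 0.27 (SE 0.121, adjusted p = 0.311) for CF against WT. The permutation test with 100000 resamples gave p = 0.0225 for CF against non-CF. The 4 highest libraries, at 75.0 to 94.6 CPM, were all later-numbered CF pigs. Within the later-numbered pigs, CF ranged from 68.7 to 94.6 CPM (n = 5) and non-CF from 55.2 to 59.0 CPM (n = 5). These ranges did not overlap, and the share of all genes separated in this way was not counted. A fit of those 10 libraries alone gave 0.51 (SE 0.0886, edgeR adjusted p = 0.0118), in a comparison that called 473 of 20882 genes (2.27%) and had 17.4% at an unadjusted p under 0.05. Among 8 principal cell markers, the same comparison called only AQP2 (-0.79, SE 0.170, edgeR adjusted p = 0.0291) and AQP3 (-0.60, SE 0.119, adjusted p = 0.0211), both lower in CF. These water channels were named after their values were seen, and their part in the HSD11B2 value was not tested. Over all libraries 3 of the 8 markers were higher and 5 lower in CF than in non-CF, with 0 at an unadjusted p under 0.05. Within the earlier-numbered pigs CF (53.0 to 70.9 CPM, n = 6) lay inside the non-CF range (41.8 to 73.3 CPM, n = 7), and the fold change was 0.03 (SE 0.123, edgeR adjusted p = 0.963), in a comparison that called 0 of 21038 genes (0%) by edgeR, with 1958 at an unadjusted p under 0.05. The difference between the 2 fold changes was itself tested as an interaction and was 0.48 on the log2 scale (p = 0.00741, edgeR adjusted p = 0.289), in a test that called 4 of 20921 genes (0.0191%). HSD11B2 was therefore the only member called under any of the 37 alternative settings for CF against non-CF, and the difference between the number sets did not pass the threshold.

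**Figure D3:**
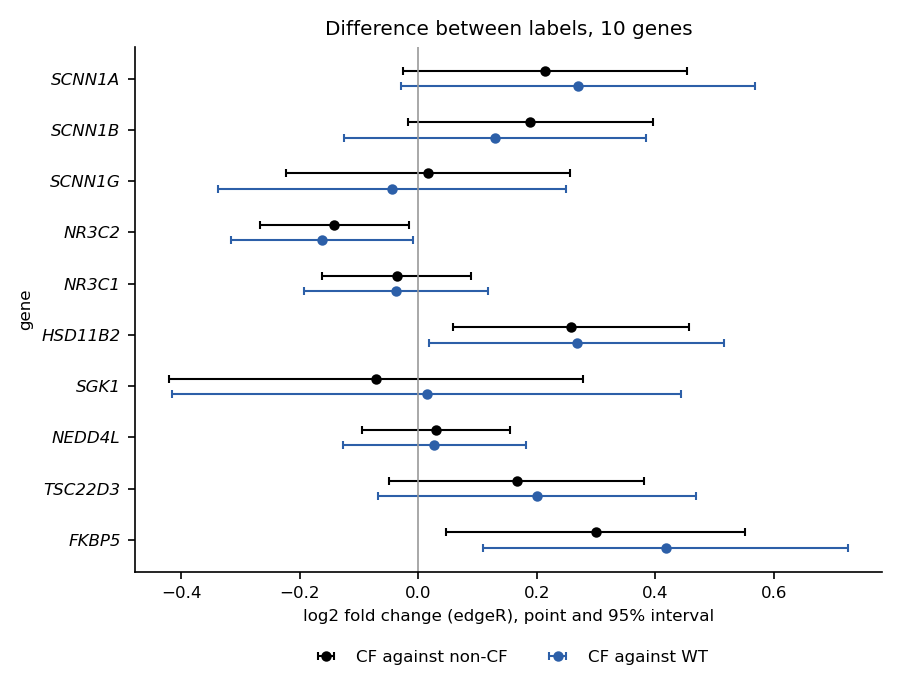
Log2 fold changes with 95% intervals from edgeR for the 10 genes, CF against non-CF in black and CF against WT in blue, with a grey line at 0. The intervals of HSD11B2, FKBP5 and NR3C2 exclude 0 before adjustment, and no adjusted p passed 0.05.

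SGK1 (serum- and glucocorticoid-regulated kinase 1, chr1:29625786-29753619, forward strand) had the largest SD of the set in CPM, at 99.9 over 23 libraries. It ranged from 186.4 to 459.6 CPM in CF with a median of 328.8, from 229.6 to 524 CPM in HET with a median of 356.1, and from 188.1 to 468.8 CPM in WT with a median of 299.7. These ranges coincide almost entirely, and the log2 fold change was -0.07 (SE 0.170, interval -0.42 to 0.28, edgeR adjusted p = 0.912) in CF relative to non-CF, and with 1 library left out it lay between -0.13 (without CF9) and -0.004 (without HET19). The spread followed the pig numbers and not the labels. Later-numbered pigs ranged from 351.7 to 524 CPM and earlier-numbered pigs from 186.4 to 328.8 CPM, with no overlap. The difference of mean log2 CPM was 0.76 over all libraries, 0.70 within CF, 0.84 within HET and 0.79 within WT. Non-overlap of the number sets was uncommon, at 17 of 20921 genes (0.0813%), 10 of them higher and 7 lower in later-numbered pigs, and SGK1 was the only member among them. Because the split was found in these data, it was not tested. The summed level of 8 principal cell markers had a median of 520.4 CPM in earlier-numbered pigs (346.4 to 631.8) and 392.2 CPM in later-numbered pigs (368.2 to 488.1), ranges that overlapped, and its part in the SGK1 level was not tested. The lowest values were in CF1 (186.4 CPM) and WT12 (188.1 CPM), which had the highest immediate early gene levels. With the number set as a term the log2 fold change for CF against non-CF was -0.08 (edgeR adjusted p = 0.699).

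**Figure D4:**
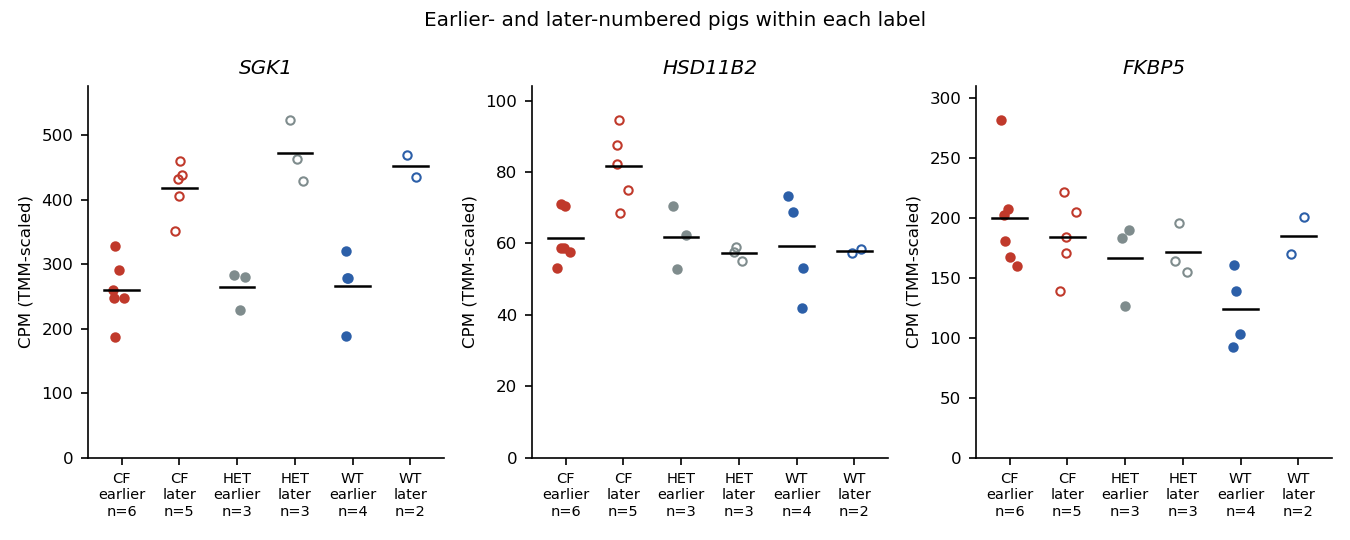
CPM of SGK1, HSD11B2 and FKBP5 by label and by pig number (earlier or later), with n under each column, points for libraries and a line at the mean. SGK1 is higher in later-numbered pigs of every label, with the nearest values at 328.8 and 351.7 CPM, while the later-numbered CF pigs hold the high HSD11B2 values and 2 earlier-numbered WT pigs hold the lowest FKBP5 values.

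NEDD4L (chr1:162364053-162736515, reverse strand), the ligase that SGK1 restrains, showed narrow spreads, with medians of 203.4 CPM in CF (175.9 to 230.8), 197.3 CPM in HET (182.5 to 221.2) and 191.7 CPM in WT (174.9 to 243.1). All 11 CF libraries lay within the non-CF range. Its log2 fold change was 0.03 (SE 0.0605, interval -0.09 to 0.15, edgeR adjusted p = 0.889), and with 1 library left out it lay between 0.01 (without CF3) and 0.06 (without WT12), all within the interval. The signal was spread over many of its 17 annotated transcripts, and that of 7428 bases had 0 TPM in every library. The most abundant over all 23 libraries, of 7912 bases, took 17.02% of the TPM in CF and 19.2% in non-CF. A transcript of 8031 bases took more in CF, 17.8%, and 14.5% in non-CF.

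TSC22D3 (chrX:88171325-88233583, reverse strand), which encodes the glucocorticoid-induced leucine zipper, ranged from 89.6 to 146 CPM in CF with a median of 111.4, from 96.4 to 124.7 CPM in HET with a median of 109.7, and from 60.5 to 129.2 CPM in WT with a median of 115.5. The lowest library was WT12, and 4 CF libraries lay above every non-CF library, although the median of CF was below that of WT. The log2 fold change was 0.17 (SE 0.105, interval -0.05 to 0.38, edgeR adjusted p = 0.517) for CF against non-CF. Later-numbered pigs had a mean log2 CPM 0.31 above that of earlier-numbered pigs, and the sets overlapped.

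FKBP5 (chr7:31441764-31550704, reverse strand), a co-chaperone that lowers the receptors' affinity for hormone, had the largest fold change of the 10 members in CF against non-CF. It ranged from 139.3 to 281.6 CPM in CF with a median of 183.6, from 126.2 to 195.2 CPM in HET with a median of 173.3, and from 92.4 to 200.3 CPM in WT with a median of 149.6. In CF, 10 of 11 libraries lay above the WT median and 5 lay above every WT library. Its log2 fold change was 0.30 (SE 0.123, interval 0.05 to 0.55, unadjusted p = 0.0222, edgeR adjusted p = 0.263) for CF against non-CF, 0.42 (SE 0.149, interval 0.11 to 0.73, unadjusted p = 0.00984, adjusted p = 0.189) for CF against WT, 0.19 (SE 0.148, adjusted p = 0.704) for CF against HET and 0.23 (SE 0.167, adjusted p = 0.752) for HET against WT. With 1 library left out, CF against HET was 0.12 without HET15 and also 0.12 without CF1, and HET against WT was 0.14 without WT12, 0.15 without WT16 and 0.35 without WT23. The exact permutation test of mean log2 CPM gave p = 0.0161 for CF against WT. The value rested in part on few libraries: CF1 was the highest at 281.6 CPM, and WT12 (92.4 CPM) and WT16 (103.1 CPM) were the lowest. Without CF1, WT12 and HET20 the log2 fold change of CF was 0.21 (edgeR adjusted p = 0.381) relative to non-CF and 0.26 (adjusted p = 0.401) relative to WT. It was 0.50 (SE 0.167, unadjusted p = 0.00932) within earlier-numbered and 0.06 (SE 0.119, unadjusted p = 0.598) within later-numbered pigs, and the interaction had p = 0.0777 (edgeR adjusted p = 0.553).

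Other genes of the pathway came from lists set down with earlier results of these data known. Of 66 genes tested on 7 lists, 0 were called for CF against non-CF by edgeR and 1 for CF against WT. DESeq2 called 4 and 5 of them, and 488 and 576 over all genes. At an unadjusted edgeR p under 0.05 for CF against non-CF, 13 were higher and 5 lower in CF, beside 13.7% of all genes at that mark. The gene called by edgeR was KLF9, a transcription factor induced by glucocorticoids, at 65.0 to 113 CPM in CF (median 80.6), 63.1 to 77.5 CPM in HET (median 71.9) and 52.9 to 71.9 CPM in WT (median 58.8). KLF9 was higher in CF than in WT by 0.49 on the log2 scale (SE 0.0981, edgeR adjusted p = 0.0287) and lay at 0.37 (SE 0.0848, adjusted p = 0.0508, DESeq2 adjusted p = 0.00715) for CF against non-CF. Without CF1, WT12 and HET20 the CF against WT value was 0.48 with an adjusted p of 0.0939. Of the 14 glucocorticoid-induced genes tested, 7 had an unadjusted p under 0.05 for CF against non-CF, all 7 higher in CF, and 13.7% of all genes passed that mark. The median log2 fold change of the list was 0.33, beside -0.00 over all genes tested. With the same 3 libraries left out the count was 4 of the 14 and the list's median 0.16. The share of all genes at that mark was not counted there, so this count has no background beside it. Within earlier-numbered pigs the list's median was 0.43, with 5 genes higher and 0 lower at an unadjusted p under 0.05 (9.31% of all genes passed that mark). Within later-numbered pigs it was 0.06, with 3 higher and 3 lower (17.4% of all genes), and PDK4, a kinase that restrains glucose oxidation, named after its value was seen, was called lower in CF at -0.67 (SE 0.137, edgeR adjusted p = 0.0236). In the absence of a called gene, the other lists are represented by the genes with their smallest p-values for CF against non-CF.

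Among 12 chaperones and coregulators of the steroid receptors, edgeR called none and the list's median was -0.02. At an unadjusted p under 0.05, 3 were lower and 0 higher in CF, beside 13.7% of all genes at that mark. FKBP4, the co-chaperone that opposes FKBP5 in the receptor complex, was at -0.38 (SE 0.107, edgeR adjusted p = 0.0941, DESeq2 adjusted p = 0.0299), and HSP90AA1, the stress-induced form of the receptor's main chaperone, at -0.33 (SE 0.137, adjusted p = 0.276). In later-numbered pigs alone FKBP4 was at -0.57 (edgeR adjusted p = 0.0114) and in earlier-numbered pigs at -0.22 (adjusted p = 0.710). HSP90AA1 was at -0.58 (edgeR adjusted p = 0.0196) in later-numbered and -0.13 (adjusted p = 0.9002) in earlier-numbered pigs. Neither difference between the sets passed the interaction test (edgeR adjusted p = 0.582 and 0.576). The 12 genes tested of the SGK1 and WNK kinase pathway had a median of -0.00, with 3 higher at an unadjusted p under 0.05. RICTOR, the scaffold of the complex that activates SGK1, was at 0.24 (SE 0.0577, edgeR adjusted p = 0.0593, DESeq2 adjusted p = 0.0114), and with the number set as a term its edgeR adjusted p was 0.0480. Its adjusted p was 0.0917 with upper-quartile scaling, 0.125 without CF1, WT12 and HET20, and 0.401 on log2(TPM + 0.5) with limma, and its edgeR fold change was 0.33 in earlier-numbered and 0.13 in later-numbered pigs. KLHL3, an adaptor for the degradation of WNK kinases that was named after its value was seen, was called in later-numbered pigs alone (0.63, SE 0.128, edgeR adjusted p = 0.0236) and lay at 0.03 in earlier-numbered pigs (interaction p = 0.00228, edgeR adjusted p = 0.203). WNK1, a kinase that controls sodium chloride and potassium transport in the distal nephron, was at 0.21 (SE 0.0702, adjusted p = 0.167). Of 8 ENaC-cleaving proteases and their inhibitors, SERPINE2, a serine protease inhibitor, was at -0.27 (SE 0.0979, edgeR adjusted p = 0.195) and FURIN, a convertase that cleaves the channel, at 0.24 (SE 0.105, adjusted p = 0.297), with a list median of -0.07. Of 10 ubiquitin and trafficking partners of NEDD4L, NDFIP2, an adaptor of the ligase, was at 0.16 (SE 0.0585, edgeR adjusted p = 0.210) and YWHAB, a 14-3-3 protein, at -0.17 (SE 0.0742, adjusted p = 0.309), with a list median of 0.00. NDFIP2 turned sign with the set, at 0.35 (edgeR adjusted p = 0.0852) in earlier-numbered and -0.08 (adjusted p = 0.623) in later-numbered pigs, with an interaction p of 1.63e-05 (edgeR adjusted p = 0.0588). The 8 genes of sodium and potassium exit, led by ATP1B1 of the sodium pump at -0.16 (SE 0.0896, edgeR adjusted p = 0.464) and KCNJ1, the apical potassium channel ROMK, at -0.11 (SE 0.0823, adjusted p = 0.588), had a median of -0.04 and none at an unadjusted p under 0.05. HSD11B1, which regenerates cortisol, was at 0.19 (SE 0.0880, adjusted p = 0.346), and H6PD, which supplies its cofactor, at 0.10 (SE 0.0905, adjusted p = 0.681). Of the 7 immediate early genes, which stood apart in 3 libraries, none was called by edgeR or DESeq2, 3 had an unadjusted p under 0.05 and the median was 0.78 (0.07 with DESeq2), with JUN at 1.09 (SE 0.428, edgeR adjusted p = 0.237) and JUNB at 1.08 (SE 0.455, adjusted p = 0.277).

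Cell type markers were read beside these values. Of 53 marker genes tested on 10 lists, edgeR called 0 and DESeq2 called 4 for CF against non-CF (488 over all genes). At an unadjusted edgeR p under 0.05, 3 were higher and 6 lower in CF, beside 13.7% of all genes at that mark. Proximal tubule markers, which define cortex, were abundant, with summed levels of 6114 to 12184 CPM in CF, 6486 to 9402 CPM in HET and 6045 to 8386 CPM in WT. The 8 markers of principal cells, the main site of ENaC and HSD11B2, summed to 346 to 632 CPM in CF (median 401), 393 to 520 CPM in HET (median 488) and 391 to 596 CPM in WT (median 451), and 0 of 8 had an unadjusted p under 0.05 over all libraries. Within later-numbered pigs alone 2 of 8 were called, AQP2 and AQP3, both lower in CF. The 7 distal convoluted and connecting tubule markers, of which 4 were lower in CF at an unadjusted p under 0.05 and 0 were called by edgeR, summed to 353 to 635 CPM in CF (median 470), 329 to 1201 CPM in HET (median 666) and 665 to 908 CPM in WT (median 769). CF and WT did not overlap on that sum while HET covered both. The sum is weighted to abundant genes, with SLC12A3 at 550.6 CPM and CALB1 at 149.3 CPM in WT12. SLC12A3 alone overlapped, at 336.1 CPM in CF4 and 319.4 CPM in WT22. Of the 7 markers, 2 were higher and 5 lower in CF against WT. Chosen after their values were seen, CALB1, the calcium buffer of these segments, was at -1.40 (SE 0.345, edgeR adjusted p = 0.0636, DESeq2 adjusted p = 0.0115) and SLC12A3, the thiazide-sensitive sodium chloride cotransporter, at -0.64 (SE 0.172, adjusted p = 0.0843 and 0.0155) for CF against non-CF. CALB1 was at -0.50 (edgeR adjusted p = 0.749) in earlier-numbered and -2.29 (adjusted p = 0.00575) in later-numbered pigs, with an interaction p of 0.00455 (edgeR adjusted p = 0.250), and SLC12A3 at -0.58 (adjusted p = 0.532) and -0.71 (adjusted p = 0.0215). In all, edgeR called 7 of the 53 markers and 4 of the 66 pathway genes in later-numbered pigs alone, where 2.27% of all genes were called and 17.4% had an unadjusted p under 0.05. It called 0 of either in earlier-numbered pigs, where 2 markers and 8 pathway genes had an unadjusted p under 0.05, as did 9.31% of all genes. The part of these segments in the members' values was not tested. Of 6 intercalated cell markers 1 was higher, of 4 loop of Henle markers 1 was lower, of 6 proximal tubule markers 1 was higher, of 5 podocyte markers 1 was higher and of 4 endothelial markers 1 was lower in CF than in non-CF at an unadjusted p under 0.05. Because 13.7% of all genes passed that mark, these counts are not read as results about the cell types. None of the 4 stroma markers, the 4 immune cell markers tested and the 5 adrenal cortex markers tested reached that mark. For the adrenal cortex, a neighbouring source of steroid enzymes, the 5 markers tested summed to 8.50 to 13.3 CPM over all libraries. Per library, CYP11A1 had 176 to 357 counts, STAR 54 to 144, CYP21A2 1 to 21 and CYP17A1 0 to 13, and CYP11B1, MT2A, SGK3 and NR4A1 were not analysed here.

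Members of the set varied together across libraries to different degrees, in 12 relations over 23 libraries with Benjamini-Hochberg adjustment over the 12. SCNN1B and SCNN1G, the subunit genes on chr3, had a Pearson r of 0.64 and a Spearman rho of 0.65 (permutation p adjusted 0.00352 and 0.00738), and an r of 0.52 without CF6 and CF7. Within earlier- and later-numbered pigs r was 0.63 and 0.75 (permutation p adjusted 0.0690 and 0.0506 over the 24 within-set relations, as for the within-set values below). HSD11B2 and SCNN1B had an r of 0.64 and a rho of 0.66 (permutation p adjusted 0.00352 and 0.00738), and an r of 0.65 without CF7 and CF9. Within the sets r was 0.67 and 0.62 (permutation p adjusted 0.0506 and 0.126). SCNN1A had an r of 0.59 with SCNN1G (rho 0.54, permutation p adjusted 0.00888 and 0.0298), 0.48 without CF1 and CF5, and 0.60 and 0.52 within the sets (permutation p adjusted 0.0847 and 0.225). With SCNN1B its r was 0.56 (rho 0.51, permutation p adjusted 0.0115 and 0.0337) and 0.51 without CF1 and CF5, but 0.82 within earlier-numbered and 0.26 within later-numbered pigs (permutation p adjusted 0.0127 and 0.537). For the 4 relations with AQP2, the water channel of principal cells, r lay between -0.36 and 0.33 and rho between -0.29 and 0.40 (permutation p adjusted 0.152 to 0.791 for r and 0.09999 to 0.673 for rho). Within later-numbered pigs HSD11B2 had an r of -0.79 with AQP2 and of -0.81 with NR3C2 (permutation p adjusted 0.0454 each over the 24 within-set relations, n = 10), against 0.33 and 0.25 within earlier-numbered pigs. With label and number set means removed, r over the 23 libraries was -0.08 with AQP2 and -0.05 with NR3C2, and in the later-numbered pigs CF and non-CF themselves differ in HSD11B2 and AQP2. FKBP5 and TSC22D3 had an r of 0.68 and a rho of 0.53 (permutation p adjusted 0.00352 and 0.0298), and an r of 0.73 and 0.44 within the sets (permutation p adjusted 0.0454 and 0.335). Their r was 0.37 without WT12 and WT16, so the relation rested on those libraries. SGK1 formed separate clusters by number set, so no pooled value is given: its r with TSC22D3 was 0.26 within earlier-numbered and -0.03 within later-numbered pigs (permutation p adjusted 0.505 and 0.950), and with FKBP5 0.07 and -0.67 (permutation p adjusted 0.897 and 0.0847).

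**Figure D5:**
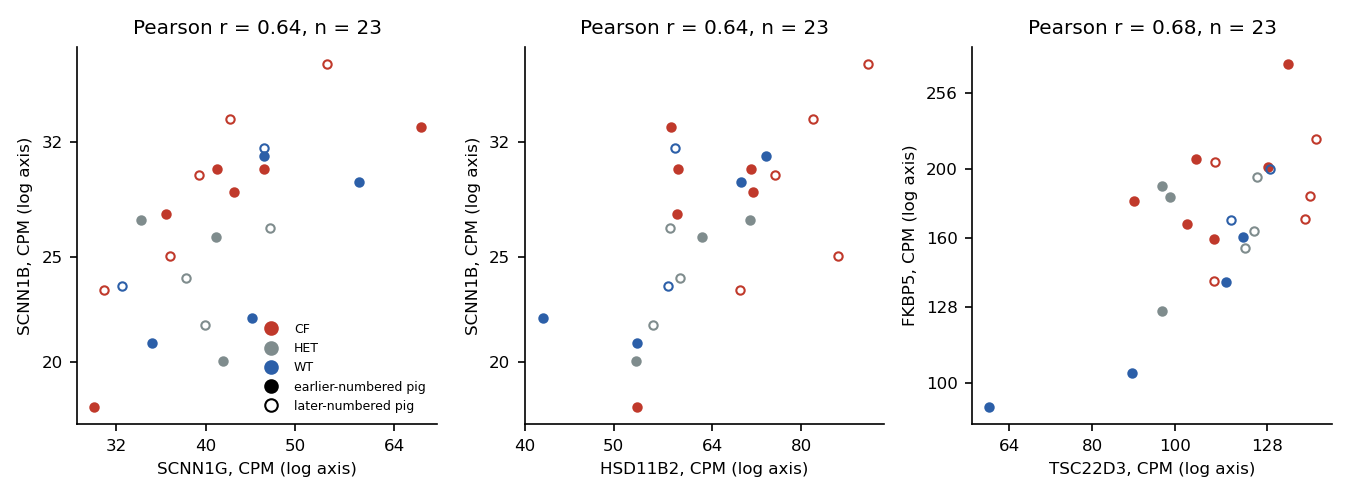
CPM of paired genes in 23 libraries on log axes, coloured by label and filled for earlier-numbered pigs, with the Pearson r of log2 CPM above each panel. The low TSC22D3 and FKBP5 values of 2 WT libraries lie apart at the lower left of the right panel, where r was 0.68 with them and 0.37 without them.

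Genes whose levels followed those of 5 members most closely were found among 13806 genes with a mean of at least 5 CPM, by Pearson r over 23 libraries after label and number set means were removed. For SCNN1B they included PLD3 (r = 0.78), TANC1 (0.77), ZHX2 (0.74) and COL4A6 (0.74). For HSD11B2 they were RAP1GAP2 (r = 0.84), ZNF827 (0.82), LOC110256758 (0.82), GGA3 (0.81) and SPATA13 (0.81). For FKBP5 they were DOCK5 (r = 0.83), HNF4A (0.79), LRP12 (0.79), RAPH1 (0.76) and the carboxypeptidase M gene, CPM (0.76). For TSC22D3 they were ARMC12 (r = 0.82), FOXRED1 (0.79), LOC100521322 (0.77), TGM3 (0.76) and ATP10A (0.75). For SGK1 they were HAUS1 (r = 0.86), CHCHD1 (0.86), TPRKB (0.84), FABP4 (0.83) and PPA2 (0.83). With the means left in, r was only 0.14 for FABP4 with SGK1 and 0.25 for DOCK5 with FKBP5. For the other genes named here it ran from 0.53 (GGA3) to 0.87 (RAP1GAP2). No member was among the 5 of another member, and these are descriptions, the highest of 13806 values each.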

How the data were processed

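Ribosome-depleted total RNA of newborn pig kidney cortex was sequenced (23 libraries). According to the study's methods, a stranded Illumina library kit was used and reads were pseudoaligned to Sscrofa11.1 with kallisto. The authors deposited expected (estimated) counts per transcript, not normalized, and TPM values per transcript, with a table pairing transcripts with gene symbols. Here the deposited estimated counts and TPM were summed per symbol (26687 genes, 77689 transcripts), and summed counts were rounded. 20921 genes passed filterByExpr.

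The main test was edgeR's quasi-likelihood test (edgeR 4.0.16, R 4.3.3) with TMM scaling and Benjamini-Hochberg adjustment over all genes tested, called at 0.05. CF against non-CF had 2 groups, and the pairwise comparisons shared a fit with 3 groups, so they share samples and are not independent. CPM values are TMM-scaled. DESeq2 1.42.0, limma 3.58.1 and the Mann-Whitney U test were alternatives, with other scalings, filters, covariates and each library left out. The study also used the Mann-Whitney U test, on its own aggregated counts. Here it was exact for genes without tied values and for transcript shares. log2 CPM used a prior count of 2 and log2 TPM a pseudocount of 0.5 or 0.1. Transcript shares were tested where the mean share was 10 to 90% and the gene's mean at least 1 TPM. Steps were tested on simulated data. Positions are from RefSeq's annotation release 106 of Sscrofa11.1, in which all 64 member transcripts were found. No protein or promoter tables were used here.

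Members and lists were chosen with earlier results of these data known. All 10 members are named, with the genes called on each list (or the 2 with the smallest p for CF against non-CF), CFTR, and the 5 genes most like each of 5 members, of which 1 is not reported here. The lists cover the members' pathways, markers of 10 cell types and immediate early genes.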

Additional observations from a re-analysis of the deposited data

How the results depend on the processing

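Of 700 recomputed member fold changes, 687 kept their direction and side of the threshold, 12 changed sign and 1 passed it (HSD11B2 in later-numbered pigs alone, 0.51, where 1 member was called). No other setting called a member, and leaving out any 1 library called 0. SCNN1G for CF against non-CF was -0.004146 with upper-quartile factors, -0.005308 with limma-voom, -0.001371 as the mean difference behind the Mann-Whitney test, -0.002992 with EIF1AY as a covariate, -0.02788 and -0.02896 on TPM with pseudocounts of 0.5 and 0.1, and -0.07346 to 0.06895 with 1 library left out. NR3C1 was 0.0191 in earlier-numbered pigs alone. The causes were not tested.

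The counts over all genes moved more. For CF against non-CF (73) they were 488 with DESeq2, 148 with the number set as a term, 46 with limma-voom and with Mann-Whitney, 45 with EIF1AY, 8 on TPM with either pseudocount, 0 and 473 in earlier- and later-numbered pigs alone, 4 without CF1, WT12 and HET20 (chosen after seeing the data), and 17 (without HET21) to 203 (without CF4) with 1 library left out. For CF against WT (73) they were 576 with DESeq2, 139 with upper-quartile factors, 186 with the number set, 18 without those 3 libraries, and 20 (without WT12) to 203 (without CF4). For CF against HET (0) they were 65 with DESeq2, 4 with either other scaling or a stricter filter, 1 with no filter, 5 with the number set, and 0 to 3. For HET against WT (1) they were 33 with DESeq2 and 1 to 4. With a gene mean of at least 5 TPM, 0 transcript shares were called over all genes and 0 in members, and 6 of 10 members kept their rank on counts per kilobase. No paired analysis was possible because the labels give no litter and no pig number occurs in more than 1 group.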
